A study of Mus musculus with 33 samples.

Results

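The 8 genes described here are the 4 mouse Notch receptors (Notch1, Notch2, Notch3 and Notch4), the nuclear partner of the cleaved receptor (Rbpj) and 3 genes known as Notch targets (Hes1, Dtx1 and Nrarp). They were taken by symbol from a table of 56748 gene IDs, and all 8 were among the 20464 genes that passed the filter on low counts. Polyadenylated RNA was sequenced from 11 populations of mouse bone marrow, with 3 libraries each. The series asks how epigenetic regulation shapes the fate of blood stem cells. Among the groups, LT-HSC and ST-HSC are stem cells with long-term and short-term repopulating ability, and MPP are multipotent progenitors. CMP (common myeloid), GMP (granulocyte-macrophage) and MEP (megakaryocyte/erythroid) are more restricted progenitors, and the other groups are CLP, CD3e T cells, B220+ cells, CD11b+ cells and BM. The labels do not spell out CLP and do not say whether BM was sorted. No genotype, strain, age or treatment is given for any group, and every group came from bone marrow. Stem and progenitor sorts were first depleted of lineage-positive cells, while mature sorts were stained directly. Nothing says that replicates came from separate animals, so the spread behind the p-values may be technical rather than that between animals.

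Notch receptors sit in the cell membrane and are cut when a Delta-like or Jagged ligand on a neighbouring cell pulls on them. The freed intracellular piece enters the nucleus, binds the DNA-binding protein encoded by Rbpj together with a Mastermind coactivator, and turns on targets such as Hes1, a transcriptional repressor, Dtx1, which encodes the E3 ligase Deltex1, and Nrarp, a feedback inhibitor of the complex. In blood formation NOTCH1 is known for directing progenitors into the T lineage in the thymus and NOTCH2 for marginal zone B cells in the spleen.

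Library totals ran from 11997186 to 32022325 counts, so 1 read was worth between 0.0221 and 0.114 CPM, counts scaled to a common library total. Levels below are CPM with TMM scaling (trimmed mean of M-values), given as mean ± SD of 3 libraries. Marker genes of the sorts were highest where the labels place them for Cd3e (202 ± 3.52 in CD3e T cells, at most 9.14 ± 0.582 elsewhere), Cd79a (3708 ± 25.2 in B220+ cells), Klf1 (1440 ± 55.7 in MEP) and Slamf1 (35.5 ± 0.597 in LT-HSC). Other members of these lists differed. The 8 stem and progenitor gate markers, Slamf1 among them, summed to 955 to 975 CPM in LT-HSC. That was below GMP (2758 to 2888), MPP (2203 to 2246), CD11b+ cells (1655 to 1724) and CD3e T cells (1112 to 1123). The 6 neutrophil markers summed to 170600 to 173900 CPM in CD11b+ cells and 221000 to 222300 in BM. Il7r, a lymphoid progenitor receptor, was nearly as high in CMP (42.9 ± 1.08) as in CLP (45.7 ± 2.84). In MEP the 6 megakaryocyte markers summed to 29.3 to 39.0 CPM, far below LT-HSC (1685 to 1702), MPP (616 to 644) and CLP (353 to 378). The 5 erythroid markers summed to 2142 to 2269 CPM in MEP, 2249 to 2318 in CD3e T cells and 33200 to 37790 in BM. Markers of other cells were present in several sorts. The summed level of 8 stromal markers was 3312 to 3322 CPM in LT-HSC libraries and 1978 to 2088 in CLP, all 8 being at 1 CPM or more in both. The 5 basophil and mast cell markers summed to 5206 to 5485 CPM in CLP, 4522 to 4635 in MPP and 6426 to 6452 in CD3e T cells. In a bulk sort, fewer cells of a type and less RNA per cell cannot be told apart.

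Notch1 (chromosome 2, 14.23 kb of exons) had the widest span of the receptors, from 191 ± 2.76 CPM in CLP (SD, n = 3) to 0.524 ± 0.336 in MEP, a 365-fold range. The CLP libraries stood at 191, 189 and 194 CPM, those of CMP at 134, 148 and 148, and those of CD11b+ cells at 125, 134 and 128. No CLP library overlapped any other population, whereas the lowest CMP library fell just below the highest CD11b+ one. CD3e T cells followed with 62.9, 62.9 and 65.5 CPM, then BM (52.2 ± 1.80), ST-HSC (41.7 ± 1.08), B220+ cells (37.0 ± 1.61), LT-HSC (31.1 ± 1.04), MPP (29.1 ± 0.362) and GMP (21.8 ± 1.57). All neighbours in this order differed by the edgeR test except LT-HSC and MPP (adjusted p = 0.145). MEP stood apart, with only 6, 11 and 5 Notch1 reads in its libraries. Exons of Notch1 are overlapped on the opposite strand by 0610009E02Rik over 1068 bases (7.5%), which had at most 35 counts in a library, and by Gm13568, which had none.

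Notch2 (chromosome 3, 10.78 kb of exons) was also highest in CLP, at 175, 170 and 184 CPM (176 ± 6.94, n = 3), and lowest in GMP, at 13.8, 13.9 and 14.3, a 12.6-fold range. CLP again overlapped no other population. BM (88.0 ± 1.21 CPM), CD11b+ cells (86.6 ± 0.107) and ST-HSC (83.1 ± 0.338) formed a plateau in which neighbours did not pass the test (adjusted p = 0.619 and 0.0977). CMP (69.4 ± 2.53) came next, and CD3e T cells (60.4 ± 1.01) and LT-HSC (60.3 ± 0.859) were not separated (adjusted p = 0.940). B220+ cells (56.6 ± 2.43), MPP (33.8 ± 2.05) and MEP (24.2 ± 0.816) closed the order above GMP. MEP libraries that had almost no Notch1 thus kept 23.6 to 25.1 CPM of Notch2. Per kilobase of exon, Notch2 exceeded Notch1 in CLP (16.4 against 13.4 CPM per kb), and the order was the other way in CMP (6.44 against 10.1). The order in CLP depends on the length used, here all annotated exons (10.78 kb for Notch2, 14.23 kb for Notch1). The longest transcript is 10500 bases for Notch2 and 9488 for Notch1, and in CPM Notch1 was the higher in CLP (191 against 176). A same-strand gene, Gm42820, shares 541 bases of Notch2 exons and had at most 69 counts.

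Notch3 (chromosome 17) was a low-abundance transcript whose highest level was in LT-HSC, at 3.95, 3.92 and 4.23 CPM. CLP had 2.79, 2.22 and 2.29 CPM and B220+ cells 1.86, 1.97 and 2.15, a pair that did not pass the test (adjusted p = 0.160). The LT-HSC libraries were above every other library. All other populations were below 1 CPM on average, 6 libraries had no Notch3 read, and GMP and MEP had 1 read each over 3 libraries. Of the 10 neighbouring pairs in its order, 8 did not pass. Gm17276, an antisense gene that overlaps 488 bases (6.03%) of Notch3 exons, had 295, 270 and 514 counts in LT-HSC, 56 to 116 in ST-HSC and at most 11 in any other library. Since no strand setting is given for the counting, reads in that overlap cannot be assigned to either gene with certainty. The 7 endothelial markers, from vessel cells that use Notch signals, were all at 1 CPM or more in LT-HSC and summed to 569 to 582 CPM there, 352 to 361 in ST-HSC, 34.5 to 36.0 in B220+ cells and 23.4 to 26.2 in CLP. None of them was at 0 in any population, and their part and that of the stromal markers in the Notch3 level was not tested.

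Notch4 (chromosome 17), the receptor best known from endothelium, stayed within a 5.36-fold range from 2.54 ± 0.133 CPM in ST-HSC to 0.473 ± 0.147 in CD3e T cells. The ST-HSC libraries read 2.65, 2.57 and 2.39 CPM and those of CMP 1.79, 2.07 and 2.40. ST-HSC and CMP overlapped and did not pass (adjusted p = 0.148), nor did 8 of the other 9 neighbouring pairs. Notch4 was therefore ordered only coarsely, with ST-HSC, CMP and CLP toward the top and CD3e T cells, B220+ cells and BM at the bottom.

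Rbpj (chromosome 5, 12.75 kb of exons) was the most even of the 8 genes, with a 3.29-fold range from 97.4 ± 3.72 CPM in CLP to 29.6 ± 2.18 in MEP. CLP libraries read 102, 95.8 and 94.7 CPM, those of CD11b+ cells 78.6, 82.9 and 83.9, and those of MEP 27.8, 29.0 and 32.0. Each of these 3 populations was separate from all others. The remaining 8 populations lay between 39.5 ± 0.661 (B220+ cells) and 54.5 ± 2.90 CPM (CMP), and 4 neighbouring pairs among them did not pass. Its 2 listed pseudogenes, Rbpj-ps1 and Rbpj-ps3, had at most 5 and 27 counts in a library.

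Across the 11 populations the levels of Notch1 and Rbpj followed each other most closely of all pairs of the 8 genes (Pearson r = 0.833 of log2(CPM + 1)), ahead of Notch1 with Notch2 (0.714). These are descriptions over 11 points that share library depth and base composition. The 250 bases before the RefSeq start sites (GRCm38.p6) of Notch1 and Rbpj are shown for that reason, and those of Dtx1 because its level had almost no relation to either (0.165 and -0.0353). Capitals mark the core letters bound by RBPJ, TGGGAA or its reverse complement, and E-boxes, CANNTG, which bHLH factors bind. Matches to the N-box and ETS letters given below are not marked. The windows are chr2:26503823-26504072 on the minus strand for Notch1, chr5:53590096-53590345 on the plus strand for Rbpj and chr5:120711670-120711919 on the minus strand for Dtx1.
Notch1: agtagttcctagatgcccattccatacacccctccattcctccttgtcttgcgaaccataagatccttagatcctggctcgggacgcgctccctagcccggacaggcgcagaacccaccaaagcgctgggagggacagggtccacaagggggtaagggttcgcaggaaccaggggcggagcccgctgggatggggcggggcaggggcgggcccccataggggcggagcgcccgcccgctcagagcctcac
Rbpj: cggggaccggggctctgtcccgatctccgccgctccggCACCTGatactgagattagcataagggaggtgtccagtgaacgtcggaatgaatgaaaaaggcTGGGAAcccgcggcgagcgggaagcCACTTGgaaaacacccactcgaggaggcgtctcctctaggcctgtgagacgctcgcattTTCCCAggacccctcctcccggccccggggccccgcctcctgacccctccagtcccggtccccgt
Dtx1: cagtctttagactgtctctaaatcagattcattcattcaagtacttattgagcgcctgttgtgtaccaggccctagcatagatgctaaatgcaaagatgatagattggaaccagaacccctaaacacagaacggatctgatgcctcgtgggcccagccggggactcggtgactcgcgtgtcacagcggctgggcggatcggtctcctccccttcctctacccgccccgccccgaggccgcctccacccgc
RefSeq windows were matched for 7 of the 8 genes, 8 windows in all, with 2 for Rbpj. Hes1 had no window, so its promoter was not searched. TGGGAA was present in both Rbpj windows, which overlap, with matches starting at -149 and -65 from the start site of the window shown, and in no window of the other 6 genes. Over 32851 windows of the same length the motif was present in 21.6%. The E-box was present in the Notch4 and Nrarp windows and in the Rbpj window shown, against 66.2% of all windows. CACNAG, an N-box, was present in Notch1, Notch2, Notch3, Dtx1 and Nrarp, against 36.7%, and GGAAG, an ETS core, in Notch2, Notch4, Dtx1 and Rbpj, against 64.1%, both strands being searched. TGGGAA and GGAAG have the letters GGAA in common and can overlap, and a match is a description of letters only. The windows ran from 56.4% GC (Dtx1) to 72% (Notch2), all above the median of 52.4%.

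Hes1 (chromosome 16, 2.04 kb of exons) marked the stem cells and CMP. LT-HSC libraries read 72.9, 73.6 and 76.8 CPM, those of CMP 46.4, 44.2 and 47.0, and those of ST-HSC 43.0, 44.7 and 43.8. LT-HSC were above all others, and CMP and ST-HSC overlapped (adjusted p = 0.119). A second step down led to MPP (11.7 ± 0.393) and B220+ cells (11.2 ± 0.576), which did not pass against each other (adjusted p = 0.642), and then to CD3e T cells (6.63 ± 0.281). CLP (2.46 ± 0.164), GMP (2.28 ± 0.531), CD11b+ cells (2.19 ± 0.214), MEP (1.89 ± 0.125) and BM (1.74 ± 0.900) shared the bottom, with no neighbouring pair passing. The 42.8-fold range thus had a different order from that of Notch1 and Notch2: CLP and CD11b+ cells, which were high for both, were among the lowest for Hes1. Across populations the correlation of Hes1 was 0.168 with Notch1, 0.136 with Notch2 and -0.172 with Rbpj. With Notch3 and Notch4 it was 0.443 and 0.464, all again as descriptions over 11 points. Per kilobase of exon, Hes1 in LT-HSC (36.5 CPM per kb) was the highest value of any of the 8 genes in any population.

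Dtx1 (chromosome 5, 5.27 kb of exons) was highest in the B220+ and CD3e T cell sorts. B220+ cells read 47.4, 49.3 and 47.2 CPM and CD3e T cells 37.3, 33.7 and 36.3. BM followed at 3.97 ± 0.287 CPM, CD11b+ cells at 1.07 ± 0.329 and CLP at 0.736 ± 0.272, and every other population was below 1 CPM. LT-HSC had 1 Dtx1 read over 3 libraries and ST-HSC had 2. The sorts carried each other's markers: the summed level of 8 B cell markers in CD3e T cells was 11.6% of that in B220+ cells (980 to 1008 against 8522 to 8680 CPM, all 8 at 1 CPM or more in both), and the 9 T cell markers in B220+ cells summed to 463 to 482 CPM against 2844 to 2888. Dtx1 in CD3e T cells was 74.6% of its level in B220+ cells, and the part of the shared markers in either level was not tested. The 5 plasmacytoid dendritic cell markers, whose cells also carry B220, were at 3129 to 3180 CPM in B220+ cells and at 6.21% of that in CD3e T cells, and their part in the B220+ level of Dtx1 was not tested.

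Nrarp (chromosome 2) was barely detected. CLP libraries read 0.591, 0.634 and 0.436 CPM and those of LT-HSC 0.298, 0.299 and 0.399, and every other population averaged 0.175 CPM or less. CLP was above all other libraries, but CLP and LT-HSC did not pass against each other (adjusted p = 0.0791), and only 1 of 10 neighbouring pairs did. On the opposite strand Gm38287 covers 2051 of 2582 exon bases (79.4%) and had no count in any library. Since no strand setting is given for the counting, reads in that overlap may have been counted for neither gene. The part of this in the low Nrarp level was not tested, and the absence of Gm38287 counts cannot settle it.

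**Figure D1:**
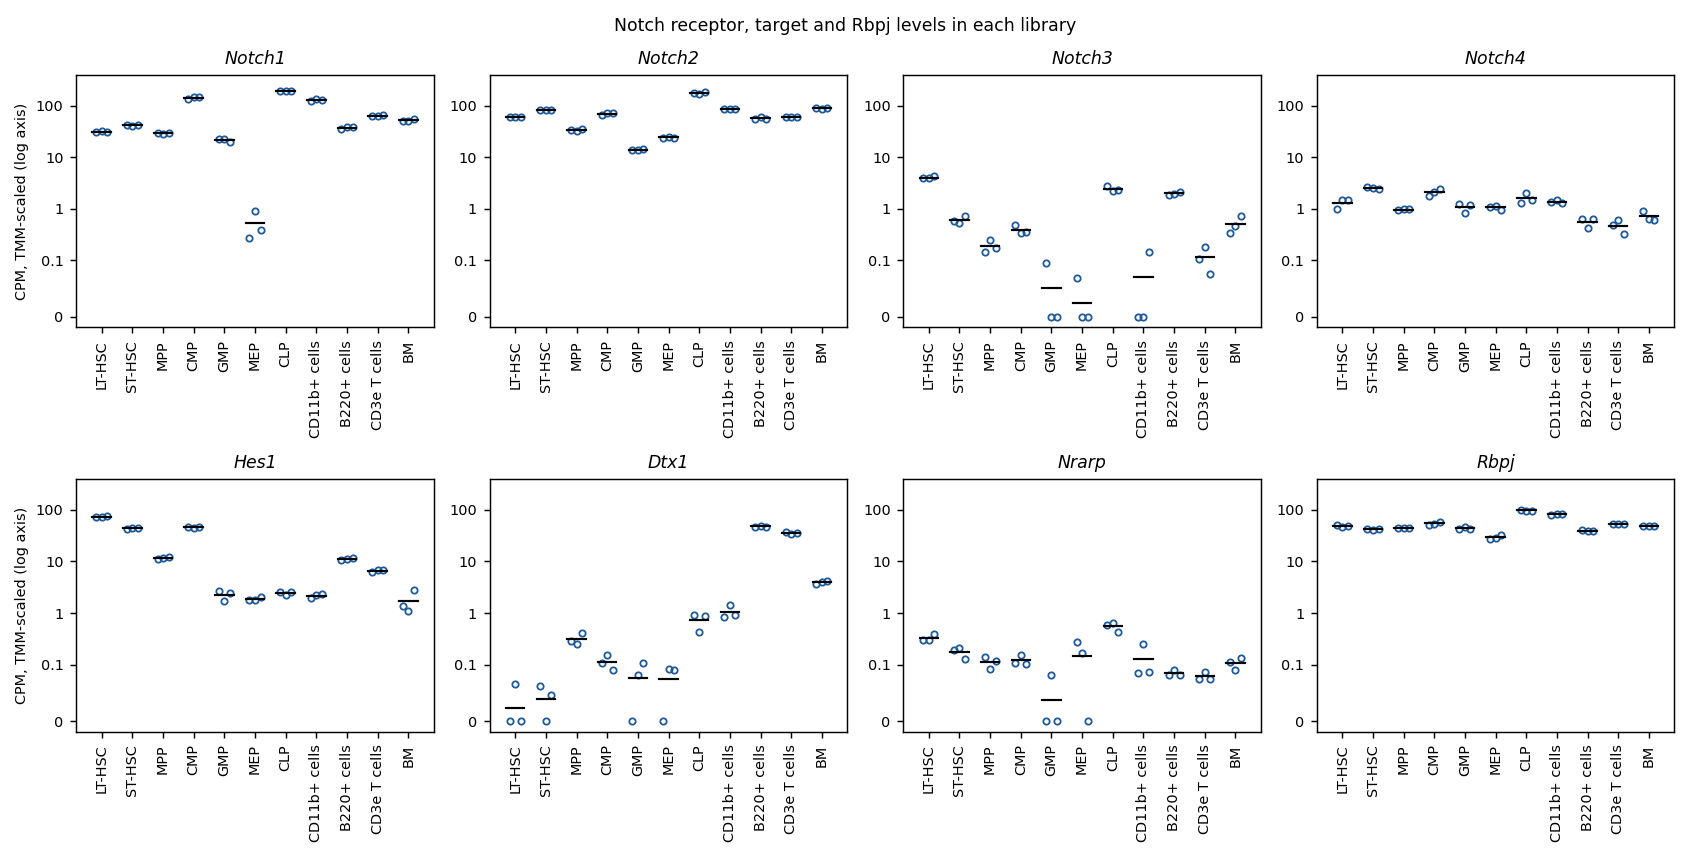
Level of each gene (CPM, TMM-scaled, log axis) in each of the 33 libraries, with populations on the horizontal axis; open circles are libraries, black bars are means of 3, and libraries with no read are drawn at the tick labelled 0. Notch1 falls to 0.524 CPM in MEP, Hes1 peaks in LT-HSC at 74.4, and Dtx1 stands above 30 CPM only in B220+ cells and CD3e T cells.

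The height of CLP for Notch1, Notch2 and Rbpj depended on whether a trend on GC content and transcript length was removed. CLP stayed highest for all 3 with relative log expression factors (186, 171 and 94.6 CPM) and with library size alone (238, 219 and 121). The longest transcripts of these 3 genes (9488, 10500 and 5485 bases) are long beside the median of 2816 for tested genes. Their GC content is 57.1%, 53.6% and 43.7%, beside a median of 49.0%. With a trend of counts on GC content and transcript length removed from each library, called the trend below, CLP stood at 59.9 CPM for Notch1, 61.5 for Notch2 and 57.2 for Rbpj. CMP (146) was then highest for Notch1, and CD11b+ cells were highest for Notch2 (87.9) and Rbpj (82.5). Notch4 became highest in CMP (2.03) and lowest in CLP (0.480), Rbpj lowest in ST-HSC (34.0) and Hes1 lowest in MEP (1.48). Hes1 remained highest in LT-HSC (79.6), Notch3 in LT-HSC (2.84) and Dtx1 in B220+ cells (56.2). The cause of the trend was not tested.

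**Figure D2:**
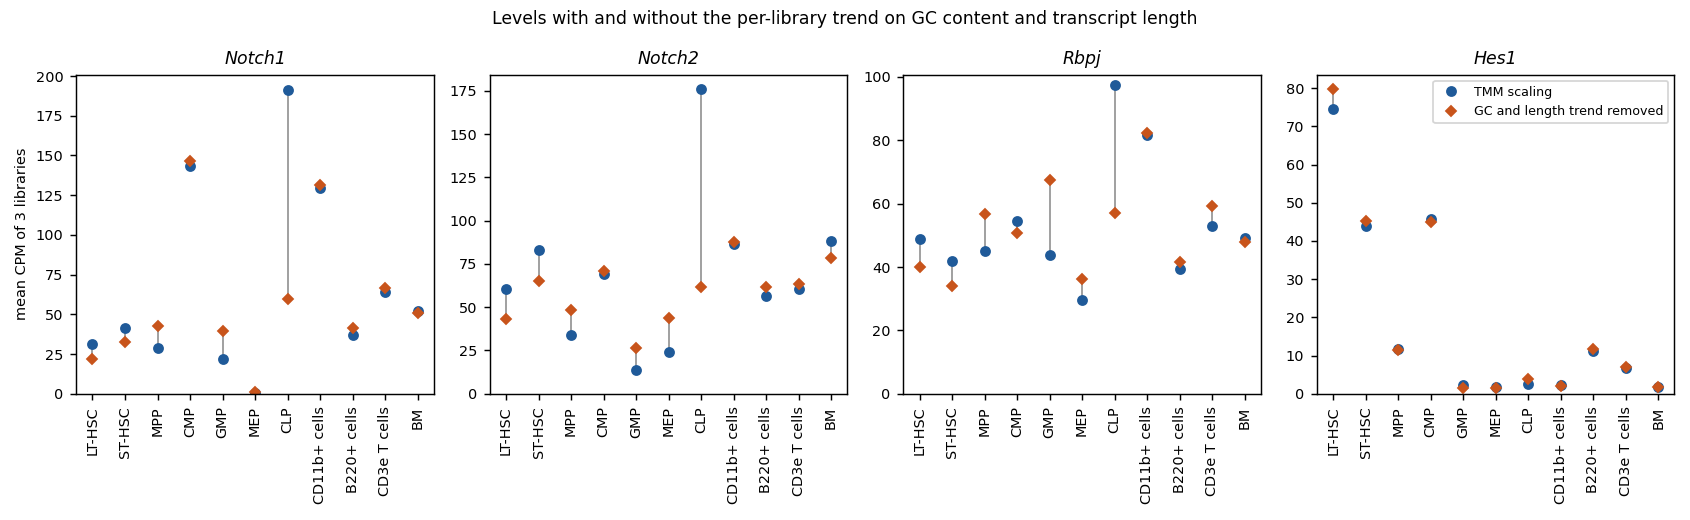
Mean level of Notch1, Notch2, Rbpj and Hes1 (CPM, linear axis) in each population by TMM scaling (circles) and with the per-library trend on GC content and transcript length removed (diamonds). The largest drops are in CLP, from 191 to 59.9 for Notch1 and from 176 to 61.5 for Notch2, while the high populations of Hes1 change little on this axis and its level in CLP goes from 2.46 to 3.86.

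The 11 comparisons below come from 1 edgeR quasi-likelihood fit over all libraries, with Benjamini-Hochberg adjustment over 20464 genes, and they share populations, so their values are set side by side only. With each is given the share of all tested genes called, which ran from 29.8% to 44.3% in a direction. The other genes of the pathway were counted from lists of ligands, processing, glycosylation, turnover, coactivator, corepressor and target genes, 65 in all, of which 62 were tested.

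ST-HSC differed from LT-HSC by slightly more Notch1 and Notch2 and by less Notch3 and Hes1. Of the 8 genes, 3 were higher and 4 lower, where 29.8% of all genes were higher and 34.1% lower. Hes1 was 1.70-fold lower (log2 fold change -0.77, SE 0.04, adjusted p = 1.58e-40) and Notch3 6.58-fold lower (-2.72, SE 0.17, adjusted p = 2.22e-30), both without overlap between libraries. Notch1 rose by 0.43 (adjusted p = 8.21e-17), Notch2 by 0.46 (adjusted p = 6.52e-26) and Notch4 by 0.91 (adjusted p = 1.48e-07), and Rbpj fell by 0.23. Nrarp was lower at -0.99 (adjusted p = 0.0258), a call lost without the third LT-HSC library (0.179) or the third ST-HSC library (0.140). Summed markers of other cells were lower as well, and their part in these differences was not tested. Endothelial sums were 569 to 582 CPM in LT-HSC and 352 to 361 in ST-HSC, and stromal sums 3312 to 3322 and 202 to 206, with 7 of 8 stromal markers at 1 CPM or more in ST-HSC. Megakaryocyte sums were 1685 to 1702 CPM in LT-HSC and 384 to 399 in ST-HSC, with 5 of 6 markers at 1 CPM or more in both and Gp1bb at 0 in ST-HSC. All 4 tested ligands fell, Dll4 from 12.8 ± 0.987 to 4.30 ± 0.260 CPM (log2 fold change -1.58, adjusted p = 1.77e-36), Dll1 by 1.88-fold, Jag1 by 1.83-fold and Jag2, the most abundant, from 38.3 ± 0.641 to 25.0 ± 0.854. Heyl, a repressor related to Hes1, was 6.74-fold lower (8.94 ± 0.685 to 1.27 ± 0.335 CPM), and Hey1 1.36-fold lower, a call lost without the third LT-HSC library (adjusted p = 0.332) or the second ST-HSC library (0.0675). Over the rest of the pathway, 62 genes, 18 were higher, 32 lower and 12 did not pass (median -0.145, all genes -0.0107).

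From ST-HSC to MPP the 4 receptors and Hes1 were all lower. The 8 genes split into 2 higher and 5 lower, where 33.6% of all genes were higher and 40.0% lower. Without the trend the split was 3 and 3, with relative log expression factors 1 and 5, and with library size alone 1 and 7. Hes1 fell 3.76-fold (43.8 to 11.7 CPM, log2 fold change -1.91, SE 0.06, adjusted p = 1.55e-54) and Notch2 2.44-fold (-1.29, adjusted p = 3.02e-54), or -0.43 without the trend. Notch4 fell 2.60-fold (-0.52 without the trend) and Notch3 3.27-fold (adjusted p = 7.54e-04, or 0.141 without the trend), to 8 reads over the MPP libraries. Notch1 was lower by 0.52 (adjusted p = 1.32e-16), a direction that turned to 0.39 higher without the trend. Rbpj was 0.11 higher (adjusted p = 0.0252, or 0.74 without the trend), and the call was lost with relative log expression factors (0.882), without the second ST-HSC library (0.133) and without each MPP library (0.0921, 0.106 and 0.0529), while library size alone turned it to -0.88. Dtx1 went from 2 reads over the ST-HSC libraries to 0.312 ± 0.0814 CPM in MPP (adjusted p = 1.49e-05). All 4 ligands fell further, Dll4 to 0.262 ± 0.137 CPM (16.5-fold), Jag2 to 4.30 ± 0.387 (5.87-fold, -1.83 in log2 without the trend against -2.55), Jag1 5.24-fold and Dll1 3.61-fold. Hes6, a Hes relative that counters Hes1 in neural cells, rose 2.36-fold to 85.6 ± 1.74 CPM. Of the other pathway genes 27 were higher and 30 lower (6 and 54 with library size alone, 35 and 19 without the trend), with a median of -0.174 against -0.107 for all genes. Summed markers of other cells differed between the sorts, and their part was not tested. Plasma cell markers were at 260 to 264 CPM in ST-HSC, where Mzb1 was at 0, and at 7846 to 8067 in MPP, the highest of the 11 populations, with all 5 at 1 CPM or more. Monocyte and macrophage markers were at 359 to 363 CPM in ST-HSC and at 4331 to 4399 in MPP, all 6 at 1 CPM or more in both. Basophil and mast cell markers were at 19.1 to 20.1 CPM in ST-HSC and at 4522 to 4635 in MPP, with 3 and 5 of 5 at 1 CPM or more. Endothelial markers were at 118 to 121 CPM in MPP, with 5 of 7 at 1 CPM or more.

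CMP had more Notch1, Notch2, Notch4 and Hes1 than MPP. Relative to MPP, 5 of the 8 genes were higher and 1 lower, where 35.0% of all genes went each way. The split was 6 and 0 with library size alone and 4 and 2 without the trend. Notch1 was 4.94-fold higher, with 134, 148 and 148 CPM against 29.4, 28.7 and 29.2 (log2 fold change 2.30, SE 0.04, adjusted p = 1.02e-78), and 1.77 without the trend. Hes1 was 3.93-fold higher (45.8 against 11.7 CPM, adjusted p = 2.03e-55), Notch2 2.05-fold (0.55 without the trend) and Notch4 2.23-fold (0.61). Rbpj was 1.22-fold higher (0.29), which turned to -0.15 without the trend. Dtx1 fell from 0.312 to 0.112 CPM (adjusted p = 0.0179), a call lost with library size alone (0.169), without the third MPP library (0.124) or without the third CMP library (0.0935). Among the ligands Dll4 was 22.6-fold higher (5.82 ± 0.604 against 0.262 CPM, adjusted p = 8.80e-33) and Jag2 5.25-fold (22.2 ± 1.66 against 4.30), 3 of 4 being called. All 4 tested Hes and Hey genes were higher, among them Heyl (1.17 ± 0.174 against 0.243 ± 0.143 CPM). The coactivator gene Maml3 was 2.96-fold higher. In the rest of the pathway 27 genes were higher and 24 lower (49 and 6 with library size alone, 20 and 28 without the trend). Flt3, a lymphoid and progenitor receptor, was at 743 ± 1.22 CPM in CMP and 276 ± 1.61 in MPP, and Il7r at 42.9 and 7.15 ± 0.120. The 9 T cell markers summed on average to 158 CPM in CMP, 47.8 in MPP, 29.2 in CLP, 12.5 in GMP and 4.16 in MEP. Of the 9, 5 were at 1 CPM or more in CMP and 6 in MPP, and their part was not tested. The sums that were high in MPP were lower in CMP, at 278 to 284 CPM for plasma cell, 174 to 181 for monocyte and macrophage and 18.9 to 21.8 for basophil and mast cell markers, and their part was not tested.

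CLP had more of 7 of the 8 genes than MPP, and the sizes depended on whether the trend was removed. All but Hes1 were higher with TMM scaling, where 39.6% of all genes were higher and 37.4% lower. Without the trend the split was 4 and 2. Notch1 was 6.57-fold higher (log2 fold change 2.72, SE 0.04, adjusted p = 1.18e-87) and Notch2 5.19-fold (2.37, adjusted p = 5.97e-85), and these became 0.48 and 0.35 without the trend, still passing. Rbpj was 2.15-fold higher (1.11), which became 0.01 (adjusted p = 0.883). Notch3 was 12.7-fold higher (2.44 ± 0.312 against 0.188 ± 0.0536 CPM), or 1.39 in log2 without the trend against 3.67 with it. Notch4 was 0.70 higher, which turned to -1.53 without the trend and did not pass without the second CLP library (adjusted p = 0.0864). Dtx1 was 1.21 higher (adjusted p = 0.00538), which became -0.26 without the trend, not passing (adjusted p = 0.61). Nrarp was 4.50-fold higher (adjusted p = 2.44e-04) and 2.09 without the trend against 2.17. Over the MPP libraries Notch3 had only 8 reads and Nrarp 5. Hes1 was lower with and without the trend, at 2.46 against 11.7 CPM (4.71-fold lower, adjusted p = 1.08e-34, or -1.57 in log2 without the trend). Of 12 corepressor genes 10 were higher and 1 lower (median 1.94, all genes 0), among them Tle1 (11.9-fold), Spen (10.2-fold) and Ncor1 (7.18-fold), and the coactivators Kat2b (12.1-fold) and Ep300 (7.92-fold) rose as well. Furin, the protease that matures the receptors, was 6.65-fold higher. Without the trend these were 2.80, 0.90, 1.04, 2.76, 1.15 and 1.23 in log2, in the order Tle1, Spen, Ncor1, Kat2b, Ep300 and Furin. Counted over the rest of the pathway, 36 genes were higher and 18 lower (48 and 9 with library size alone, 25 and 30 without the trend). The stromal markers given above were at 141 to 151 CPM in MPP, against 1978 to 2088 in CLP. Plasma cell markers averaged 7959 CPM in MPP and 193 in CLP. Monocyte and macrophage markers were at 4331 to 4399 and 892 to 914, and the part of these lists in the differences was not tested.

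GMP had less Hes1, less Rbpj and less of all 4 receptors than CMP. Of the 8 genes 6 were lower and none higher by the edgeR test, where 41.9% of all genes were lower and 31.8% higher. The 2 that did not pass, Dtx1 and Nrarp, had adjusted p of 0.413 and 0.107. Hes1 was 20.8-fold lower (2.71, 1.69 and 2.44 CPM against 46.4, 44.2 and 47.0, log2 fold change -4.38, SE 0.10, adjusted p = 1.21e-70). Notch1 was 6.54-fold lower (22.3, 23.0 and 20.0 against 134, 148 and 148 CPM, adjusted p = 3.20e-81), or -1.89 in log2 without the trend against -2.71. Notch2 was 4.99-fold lower, or -1.42 against -2.32. Notch4 was 2.09-fold lower (adjusted p = 4.06e-05, or 0.164 without the trend), and Notch3 went from 0.394 ± 0.0701 CPM to 1 read over the 3 GMP libraries. Rbpj was 0.32 lower, which turned to 0.41 higher without the trend, making the split 1 higher and 4 lower. All 4 ligands were lower, Dll4 21.1-fold and Jag2 9.45-fold, as was Maml2, a coactivator, at 4.78-fold (-1.47 in log2 without the trend against -2.26). Hes6 was higher at 217 ± 6.86 against 128 ± 2.49 CPM (1.69-fold, adjusted p = 2.10e-45), which library size alone turned to -0.41. Among other pathway genes 25 were higher and 33 lower (1 and 56 with library size alone, 28 and 26 without the trend). Monocyte and macrophage markers, all 6 at 1 CPM or more in both, summed to 6795 to 7123 CPM in GMP and 174 to 181 in CMP, and their part was not tested.

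MEP had almost no Notch1 and little Hes1. Relative to CMP, 6 of the 8 genes were lower and none higher by the edgeR test, where 44.3% of all genes were lower and 34.1% higher. Dtx1 (adjusted p = 0.240) and Nrarp (0.492) did not pass. Notch1 was 302-fold lower (0.274, 0.905 and 0.391 against 134, 148 and 148 CPM, log2 fold change -8.24, SE 0.10, adjusted p = 3.73e-101), or -7.39 in log2 without the trend, with 22 reads over the 3 MEP libraries. Hes1 was 24.3-fold lower (1.83, 1.81 and 2.04 against 46.4, 44.2 and 47.0 CPM, adjusted p = 1.52e-75). Neither gene had overlapping libraries. Notch2 was 2.89-fold lower (-1.53, or -0.71 without the trend), Rbpj 1.88-fold (-0.91, or -0.52) and Notch4 2.02-fold (adjusted p = 1.59e-05, or 0.313 without the trend), and Notch3 was down to 1 read. All 4 ligands were lower, Jag2 113-fold (0.183 ± 0.0395 against 22.2 CPM). Dtx4, a Deltex relative, was 127-fold, Maml2 28.0-fold and Mfng, a Fringe glycosyltransferase that tunes ligand choice, 8.70-fold lower. Psen2, a catalytic subunit of the protease that frees the receptor's inner piece, was 4.61-fold higher, at 133 ± 4.31 CPM against 29.1. Of the other pathway genes 16 were higher and 39 lower (7 and 53 with library size alone), with a median of -0.656 against -0.252 for all genes. Erythroid markers summed on average to 2193 CPM in MEP and 229 in CMP. The sums were 34.0 and 78.7 for megakaryocyte and 4.16 and 158 for T cell markers, and the part of these lists was not tested.

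CD11b+ cells held more Notch1 and Notch2 than GMP, and Hes1 did not pass the test. Of the 8 genes 4 were higher and none lower by the edgeR test, where 41.3% of all genes were higher and 32.8% lower. Notch1 was 5.89-fold higher (125, 134 and 128 against 22.3, 23.0 and 20.0 CPM, adjusted p = 2.61e-76), or 1.73 in log2 without the trend against 2.56. Notch2 was 6.20-fold higher (86.7, 86.6 and 86.5 against 13.8, 13.9 and 14.3 CPM, adjusted p = 5.10e-72), or 1.73 against 2.63. Rbpj was 1.86-fold higher (0.90, or 0.28 without the trend). Hes1 was at 1.95, 2.25 and 2.37 CPM against 2.71, 1.69 and 2.44, overlapping, with a log2 fold change of 0.00 and an SE of 0.22 (0.42 without the trend, adjusted p = 0.0712). Dtx1 rose from 2 reads over the GMP libraries to 1.07 CPM (adjusted p = 1.08e-09), Notch3 had 1 read over the GMP and 2 over the CD11b+ libraries, and Notch4 did not pass (0.40, adjusted p = 0.203, or -0.18 without the trend). Nrarp did not pass (adjusted p = 0.0748), but passed without the second GMP library (0.0365) or the first CD11b+ library (0.0494). Numb, an inhibitor of Notch that promotes its endocytosis, was 10.2-fold higher (157 ± 5.98 against 15.5 ± 0.779 CPM) and Aph1b, a subunit of the cleaving protease, 19.9-fold higher. Jag1 rose from 3 reads over the GMP libraries to 2.77 ± 0.679 CPM. The other pathway genes split into 38 higher and 16 lower (median 0.608, all genes 0.254). Neutrophil markers summed to 170600 to 173900 CPM in CD11b+ cells and 225 to 273 in GMP, all 6 at 1 CPM or more in both. Monocyte and macrophage markers summed to 4694 to 4921 CPM in CD11b+ cells and 6795 to 7123 in GMP, and the part of either list was not tested.

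**Figure D3:**
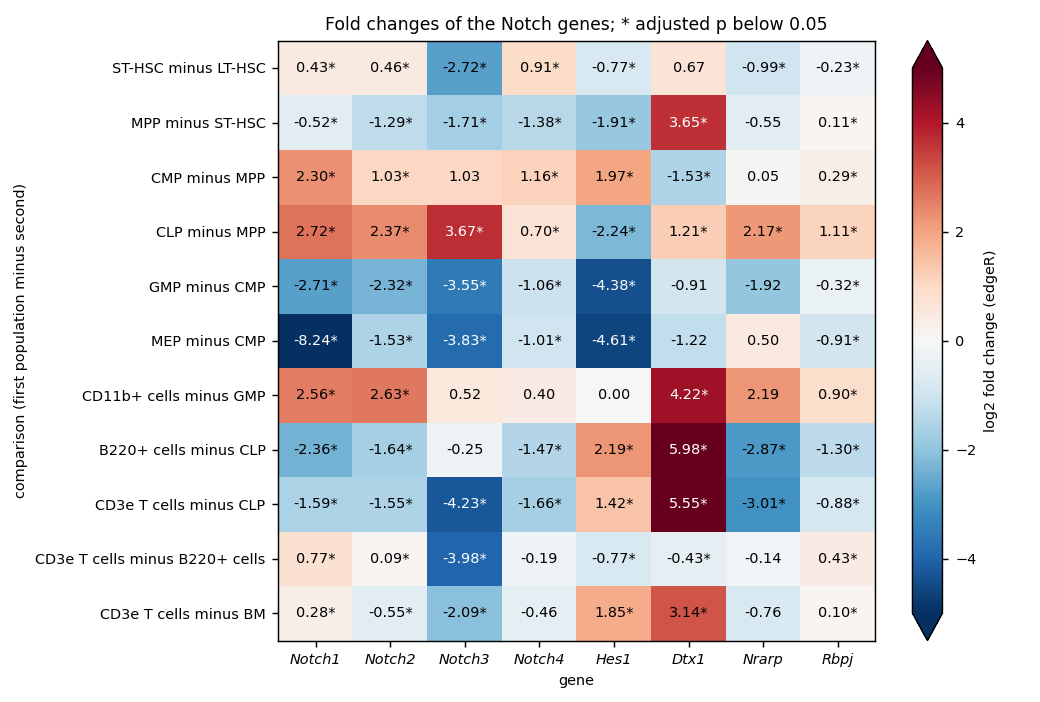
Log2 fold change of each of the 8 genes (columns) in each comparison (rows, first population minus second), coloured from blue (lower) to red (higher), with an asterisk where the edgeR adjusted p was below 0.05. Notch1 reaches -8.24 in MEP against CMP, beyond the end of the colour scale, and Hes1 goes against Notch1 in CLP against MPP (-2.24 and 2.72).

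B220+ cells had less Notch1, Notch2, Notch4 and Rbpj and more Dtx1 and Hes1 than CLP. Of the 8 genes 2 were higher and 5 lower, where 39.5% of all genes were higher and 42.5% lower. Without the trend the split was 3 and 3. Dtx1 was 63.2-fold higher (47.4, 49.3 and 47.2 against 0.913, 0.423 and 0.873 CPM, log2 fold change 5.98, SE 0.10, adjusted p = 3.51e-90) and Hes1 4.56-fold higher (10.7, 11.1 and 11.8 against 2.52, 2.27 and 2.58 CPM, adjusted p = 1.93e-37). Both held without the trend (7.35 and 1.60 in log2). Notch1 was 5.13-fold lower (-2.36, or -0.53 without the trend), Rbpj 2.47-fold (-1.30, or -0.46) and Notch2 3.12-fold (-1.64, which became -0.01 with adjusted p = 0.880). Notch4 was lower by 1.47 in log2 (2.78-fold), which became 0.47 without the trend, not passing (adjusted p = 0.105). Notch3, not passing at -0.25 (adjusted p = 0.160), turned to 1.69 higher without the trend (adjusted p = 8.07e-16). Nrarp was 7.32-fold lower, with only 5 reads over the B220+ libraries. Cr2, a complement receptor of mature B cells and a known Notch2 target, was 248-fold higher (92.6 ± 3.43 against 0.370 ± 0.0565 CPM; 8.94 in log2 without the trend against 7.96). Hes5 was 32.1-fold higher (2.70 ± 0.381 against 0.0719 ± 0.0322 CPM), Il2ra, a receptor chain, 32.4-fold and Hes6 3.17-fold (213 ± 4.66 against 66.9 ± 2.88). In the remaining pathway 24 genes were higher and 35 lower (32 and 27 without the trend). Stromal markers summed to 12.1 to 14.7 CPM in B220+ cells and 1978 to 2088 in CLP. The sums were 94.9 to 101 and 5206 to 5485 for basophil and mast cell markers. For neutrophil markers they were 8222 to 8566 and 62.4 to 66.4, and the part of these lists was not tested.

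CD3e T cells had more Dtx1 and Hes1 than CLP. The other 6 genes were lower, where 40.5% of all genes were higher and 41.7% lower, and the split was 3 and 2 without the trend. Dtx1 was 46.8-fold higher (37.3, 33.7 and 36.3 against 0.913, 0.423 and 0.873 CPM, log2 fold change 5.55, SE 0.11, adjusted p = 4.65e-82; 6.89 without the trend) and Hes1 2.68-fold higher (6.31, 6.76 and 6.83 against 2.52, 2.27 and 2.58 CPM, adjusted p = 3.76e-19; 0.85 without the trend against 1.42). The falls of 4 genes did not keep their direction without the trend. Notch1 went from -1.59 to 0.15, Notch2 from -1.55 to 0.04, Notch4 from -1.66 to 0.23 and Rbpj from -0.88 to 0.06. Of these only Notch1 still passed (adjusted p = 3.73e-05), against 0.247 for Notch2, 0.475 for Notch4 and 0.107 for Rbpj. Notch3 was 18.8-fold lower (-4.23, or -2.38) and Nrarp 8.06-fold lower (-3.01, or -3.11), with only 8 and 4 reads over the T cell libraries. Of 7 lymphoid target genes 6 were higher and none lower by the edgeR test (median 4.14, all genes 0). Tcf7, a transcription factor of early T cells induced by Notch, was 17.6-fold higher (287 ± 7.20 against 16.4 ± 0.762 CPM), Gata3 16.3-fold and Bcl11b, a T cell commitment factor, 21.8-fold (5.83 in log2 without the trend against 4.44). The Fringe genes Lfng (73.3 ± 2.12 against 21.1 ± 0.727 CPM, 3.49-fold) and Mfng (131 ± 4.44 against 25.4 ± 2.69, 5.11-fold) rose too. The other pathway genes split into 25 higher and 30 lower (33 and 22 without the trend). Neutrophil markers summed to 11570 to 11700 CPM in CD3e T cells and 62.4 to 66.4 in CLP. Stromal sums were 270 to 273 and 1978 to 2088, and monocyte and macrophage sums 4009 to 4160 and 892 to 914. The part of these lists was not tested.

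Set directly against B220+ cells, CD3e T cells had more Notch1 and Rbpj and less Hes1 and Dtx1. Of the 8 genes 3 were higher and 3 lower, where 35.5% of all genes were higher and 34.9% lower. Notch1 was 1.71-fold higher (62.9, 62.9 and 65.5 against 35.2, 38.0 and 38.0 CPM, log2 fold change 0.77, SE 0.04, adjusted p = 5.81e-34) and Rbpj 1.34-fold higher (0.43, adjusted p = 1.26e-16). Hes1 was 1.70-fold lower (-0.77, adjusted p = 8.88e-14), Dtx1 1.35-fold lower (-0.43, adjusted p = 2.48e-16) and Notch3 15.7-fold lower (0.114 ± 0.0639 against 1.99 ± 0.148 CPM). The T cell libraries held only 8 Notch3 reads. Notch2 was called higher by 0.09 with overlapping libraries (adjusted p = 0.0263), a call lost with library size alone (0.128), without the trend (0.265) and without the third B220+ library (0.152). Notch4 (adjusted p = 0.645) and Nrarp (0.916) did not pass. Lfng was 4.25-fold and Mfng 1.98-fold higher, Tcf7 11.8-fold higher and Cr2 9.09-fold lower (10.3 ± 0.502 against 92.6 CPM). All 5 glycosylation genes were higher, and the other pathway genes as a whole split into 34 higher and 21 lower (median 0.283, all genes 0). Myeloid markers differed between these sorts, and their part was not tested. Neutrophil markers summed to 11570 to 11700 CPM in CD3e T cells and 8222 to 8566 in B220+ cells. The sums were 4009 to 4160 and 1420 to 1480 for monocyte and macrophage markers, and 6426 to 6452 and 94.9 to 101 for basophil and mast cell markers. The plasmacytoid dendritic cell sum went the other way.

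Against BM, CD3e T cells were marked by Dtx1 and Hes1. Of the 8 genes 4 were higher and 2 lower, where 35.5% of all genes were higher and 36.8% lower, and the split was 4 and 1 with library size alone. Dtx1 was 8.83-fold higher (37.3, 33.7 and 36.3 against 3.65, 4.03 and 4.22 CPM, log2 fold change 3.14, SE 0.09, adjusted p = 3.86e-62) and Hes1 3.59-fold higher (6.31, 6.76 and 6.83 against 1.37, 1.08 and 2.77 CPM, adjusted p = 4.96e-19). Notch1 was only 1.22-fold higher (0.28, adjusted p = 4.18e-08). Notch2 was 1.46-fold lower (-0.55, adjusted p = 6.87e-25), which became 0.06 with library size alone, not passing (adjusted p = 0.0898). Notch3 was 4.25-fold lower, with only 8 reads over the T cell libraries. Rbpj was called 0.10 higher (adjusted p = 0.0406), a call lost with relative log expression factors (0.144), without the second T cell library (0.121), without the second BM library (0.0710) and without the third BM library (0.0507). Tcf7 was 26.1-fold, Lfng 5.11-fold, Mfng 4.27-fold and Jag2 5.15-fold higher, the last at 3.81 ± 0.213 against 0.724 ± 0.0576 CPM. The other pathway genes split into 30 higher and 20 lower (49 and 8 with library size alone). The B cell markers were at 1424 to 1469 CPM in BM, above CD3e T cells, and the neutrophil markers at 221000 to 222300.

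**Figure D4:**
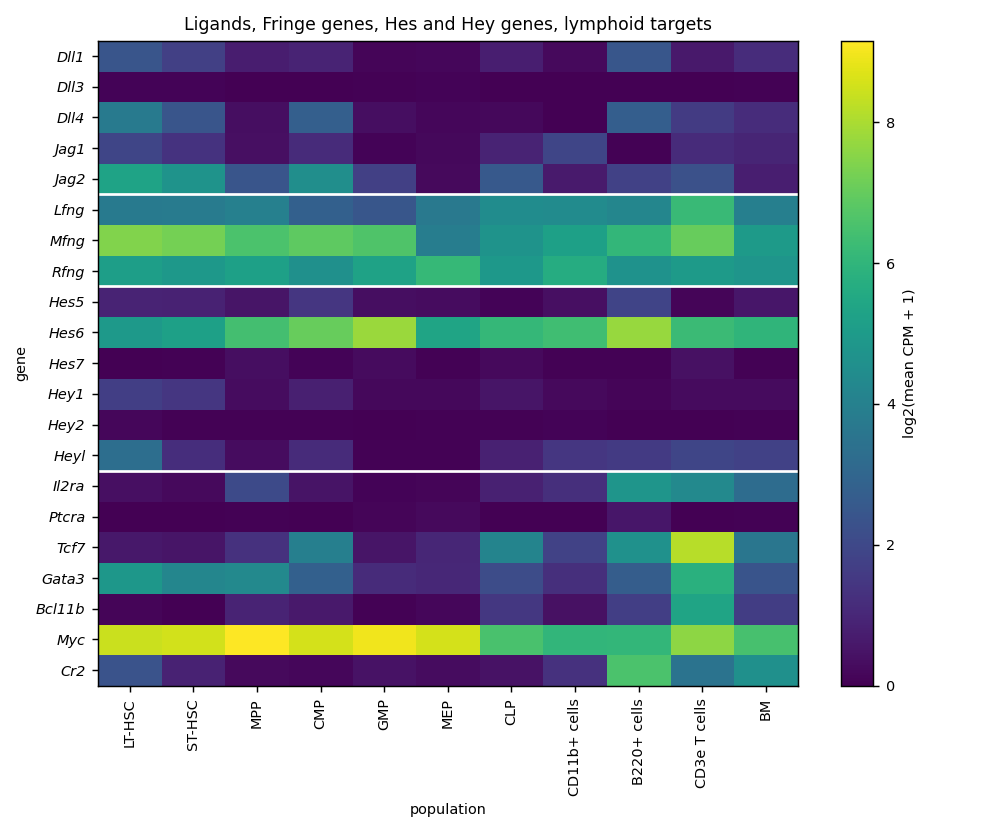
Mean level, as log2(mean CPM + 1), of the ligands, Fringe genes, other Hes and Hey genes and lymphoid targets (rows) in each population (columns). Jag2 is brightest in LT-HSC (38.3 CPM), ST-HSC and CMP, Hes6 in GMP (217 CPM) and B220+ cells (213 CPM), and Tcf7 in CD3e T cells (287 CPM).

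The genes whose level followed each of the 8 most closely over the 11 populations were taken from about 10878 genes that reached 10 CPM in some population. For Notch1 they were Appl1 (r = 0.958), Trps1 and Fndc3a, and for Notch2 they were Trip11 (0.971), Rc3h2 and Taok1. Rbpj was followed by Cited2 (0.957), Mast3 and Ranbp9. Dtx1 had the closest company, the lymphocyte genes Lta (0.985), Sit1 (0.977) and Cd2 (0.976). Hes1 was followed by Ifi44 (0.955) and Dusp4. The low-abundance genes had Ahi1 (0.917), Bglap3 and Plod2 for Notch3, Naa16 (0.823), Bclaf3 and Stam for Notch4, and Kif2a (0.948), Casd1 and Sipa1l3 for Nrarp. Bglap3 can share reads with its near copies. Of the pairs among the 8 genes, Notch4 with Dtx1 had the most negative value (-0.739).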

How the data were processed

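The authors deposited raw read counts per gene for 33 libraries, in 1 table. Per the submitters' processing notes, the tools were HTSeq, HISAT2, cutadapt and DESeq2, with mm39 as the build. Versions, the annotation release, the strand setting and the sort gates are not given in the sources used here. Gene IDs were matched to symbols in GENCODE M21 (GRCm38): 52073 of 56748 matched, and 67 symbols stood on several IDs. Each column matched 1 library by name.

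After filterByExpr with the population as group, 20464 genes were kept and scaled by TMM. A model with a mean for each population (22 residual degrees of freedom) was fitted in edgeR 4.0.16 (R 4.3.3) with glmQLFit, robust, and glmQLFTest. P-values were Benjamini-Hochberg adjusted over all genes tested, with 0.05 as the threshold. Depth sets the precision: no fold is given against a group with 3 reads or fewer over its libraries. Exon lengths came from GENCODE M21 and promoter sequences from RefSeq.

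The 8 genes, the pathway and marker lists and the comparisons were chosen with earlier results of these data known. All 8 genes were named. Pathway genes were named by the largest change in a comparison, or as a whole list of up to 5. The 3 genes most alike in pattern were ranked by Pearson r of log2(CPM + 1). Some genes that these rules name are not reported here. As alternatives, the scaling was replaced by relative log expression factors or by library size alone, the filter was left out, and limma-voom (limma 3.58.1) or DESeq2 1.42.0 was used. Others were dispersion estimated before the fit, a test against a 2-fold change, the 2 populations alone, the replicate number as a block, leaving out each library, and removal of a trend of each library's counts with GC content and transcript length. That trend was estimated on genes above 2 CPM on average, and GC content and length were known for 96.5% of the tested genes. The script was tested on simulated data first.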

Additional observations from a re-analysis of the deposited data

How the results depend on the processing

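Over the 8 genes in 11 comparisons, the alternatives other than leaving out a library left 786 of the single-gene results on the same side of the threshold, 13 of which, passing in neither fit, changed sign; 48 lost and 10 gained a call, and 13 that passed in either fit turned in direction. Leaving out 1 library lost 13, gained 2 and turned none that passed, while 9 passing in neither fit changed sign. Without the trend on GC content and length, the log2 values that turned, among those past the threshold in either fit, were Notch1 0.394 in MPP minus ST-HSC, Rbpj -0.147 in CMP minus MPP, Notch4 -1.53 and Dtx1 -0.256 in CLP minus MPP, Rbpj 0.407 in GMP minus CMP, Notch3 1.69 and Notch4 0.469 in B220+ cells minus CLP, and Notch1 0.149, Notch2 0.0404, Notch4 0.229 and Rbpj 0.0628 in CD3e T cells minus CLP, where 5 of the 8 genes passed in place of 8. Below the threshold in both fits, Nrarp turned to -0.0144 in CMP minus MPP and Notch3 to -0.1, Notch4 to -0.181 and Hes1 to 0.415 in CD11b+ cells minus GMP. The cause was not tested. Of the 16 highest and lowest populations of the 8 genes, 9 stayed. Scaling by library size alone turned Rbpj to -0.882 in MPP minus ST-HSC, Hes6 to -0.414 in GMP minus CMP and Notch2 to 0.0637 in CD3e T cells minus BM, and moved the median of all genes by -0.987 in MPP minus ST-HSC, -1.15 in GMP minus CMP, -0.914 in MEP minus CMP, 0.675 in CMP minus MPP, 0.566 in CLP minus MPP, 0.571 in CD3e T cells minus BM and 0.297 in CD11b+ cells minus GMP. A test against a 2-fold change, stricter by construction, called 1 of the 8 genes in ST-HSC minus LT-HSC, 3 in MPP minus ST-HSC, 2 in CMP minus MPP, 1 in CD3e T cells minus B220+ cells and 3 in CD3e T cells minus BM. Among the other pathway genes it called 5, 17, 15, 29, 26, 31, 30, 35, 36, 15 and 13 in the order of the report. Leaving out 1 library, counts of the 8 genes ranged from 4 to 5 in CD11b+ cells minus GMP and from 7 to 8 in CLP minus MPP, and moved by at most 1 elsewhere, while the highest and lowest populations that stayed ranged from 15 to 16.

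Correlations of deviations between same-numbered libraries of different populations ran from -0.134 to 0.293, and 20 of 165 pairs were above 0.1. Their median was 0.0278, against -0.0159 for libraries of different number. Such values cannot tell whether same-numbered libraries shared an animal or a sort, and the labels give no pairing. With the replicate block the 8 genes gave 7, 7, 6, 8, 6, 6, 4, 7, 8, 6 and 6 calls in the 11 comparisons, in the order of the report, and none of their calls changed. Reads limit Notch3 and Dtx1, which had 3 reads or fewer in several populations, and their order at the bottom changed with 1 library left out. Dtx1 was then lowest in ST-HSC in place of LT-HSC, and Notch3 in GMP or CD11b+ cells in place of MEP. Nrarp had 1 read over the GMP libraries. Hes1 had 12, 14 and 42 counts in the BM libraries and was lowest in MEP without the first or second of them.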
